A study of Mus musculus with 3 samples.

Results

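The genes described here are those of the mouse MHC class II system: the chain genes H2-Aa, H2-Ab1, H2-Eb1 and H2-Eb2, the invariant chain gene Cd74, the peptide-loading genes H2-DMa, H2-DMb1, H2-Oa and H2-Ob, and their transactivator gene Ciita. They were chosen by NCBI gene ID and make up 10 of the 17615 genes listed in any of the 3 libraries. All 10 were listed in every library, and none was lost to a filter on low values. RNA came from macrophages of spleen in C57BL/6J mice given a transplant of acute myeloid leukemia cells carrying GFP and BFP. The leukemia of 1 group was high in mM-CSF, that of another was high in sM-CSF, and that of the control group was high in neither. All mice were transplanted at 6 to 8 weeks of age with 800000 cells, were not irradiated, and were sampled on day 18 of a disease that left them 30 to 40 days. The sorted cells lacked GR1, carried the macrophage antigen encoded by Adgre1, and had an intermediate level of CD115, the M-CSF receptor. What the m and s of mM-CSF and sM-CSF stand for is not given by the labels, which also do not say how the leukemia cells were given them, and do not say how many mice went into a library. There was 1 library per group, so no comparison has a replicate check or a p-value, and intervals given below cover counting error only.

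MHC class II molecules present peptides from the endosomal pathway to CD4 T cells, and are made by B cells, dendritic cells and, to a varying degree, macrophages. The H2-Aa and H2-Ab1 products pair as I-A. The H2-Eb1 product pairs with that of H2-Ea as I-E, which C57BL/6 mice lack because their H2-Ea gene is defective. Newly made chains are held by the invariant chain, Cd74, until it is cut away in the endosome. H2-DM then exchanges the remaining fragment for peptide, and H2-O restrains H2-DM. CIITA does not bind DNA itself. It joins a complex that RFX factors, CREB and NF-Y build on the X and Y boxes of class II promoters.

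Promoter stretches with these boxes are shown first, because CIITA acts through them. RefSeq windows (GRCm38.p6) of 250 bases before to 50 after a transcript start were found for 7 of the 10 members. Ciita, H2-Ab1 and Cd74 had no window and were not searched here. The windows were searched on both strands for GNAAC, a core of the RFX-bound X box, followed by ATTGG, the NF-Y core of the Y box. ATTGG had to follow 25 to 45 bases later, so that the motifs do not overlap. The pair was present in 6 of these 7 members, beside 3.83% of all 27025 genes with a window, and in 3.32% of all 32851 windows. GNAAC alone was in 84.8% and ATTGG alone in 37.4% of all windows, so it is the pair at this spacing that is uncommon. Each stretch below runs 5′ to 3′ along the gene's strand, with GNAAC and ATTGG in capitals.
H2-Aa: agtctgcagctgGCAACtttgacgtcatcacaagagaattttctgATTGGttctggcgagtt
H2-Eb1: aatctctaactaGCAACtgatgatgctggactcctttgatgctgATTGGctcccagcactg
H2-Eb2: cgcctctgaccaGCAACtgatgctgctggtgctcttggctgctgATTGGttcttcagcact
H2-DMb1: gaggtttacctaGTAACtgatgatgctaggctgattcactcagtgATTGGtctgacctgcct
H2-Oa: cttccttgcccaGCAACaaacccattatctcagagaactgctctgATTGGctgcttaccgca
H2-Ob: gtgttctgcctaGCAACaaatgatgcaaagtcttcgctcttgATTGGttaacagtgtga
They lie at chr17:34287855-34287916 (H2-Aa, minus strand), chr17:34305764-34305824 (H2-Eb1, plus), chr17:34325531-34325591 (H2-Eb2, plus), chr17:34153085-34153146 (H2-DMb1, plus), chr17:34092291-34092352 (H2-Oa, plus) and chr17:34238806-34238864 (H2-Ob, plus).

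Within the searched range of 25 to 45 bases, the spacing varied little. It was 28 bases between the motifs in H2-Aa, H2-DMb1 and H2-Oa, 27 in H2-Eb1 and H2-Eb2, and 25 in H2-Ob. The H2-Ob spacing is the least that was searched, so closer pairs could not be found. The first motif was GCAAC in 5 of the 6. The letters TGATG stood between the motifs in 4 of the 6, and TGACG in H2-Aa, where the X2 site for CREB-type factors lies in class II promoters. The ATTGG began 43 to 61 bases before the start in 5 genes and 100 bases before it in H2-Eb2. Neither of the 2 windows of H2-DMa held the pair, which says only that these letters are not in those windows. A match is a description of sequence, and the expression tables hold no measure of binding.

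**Figure D1:**
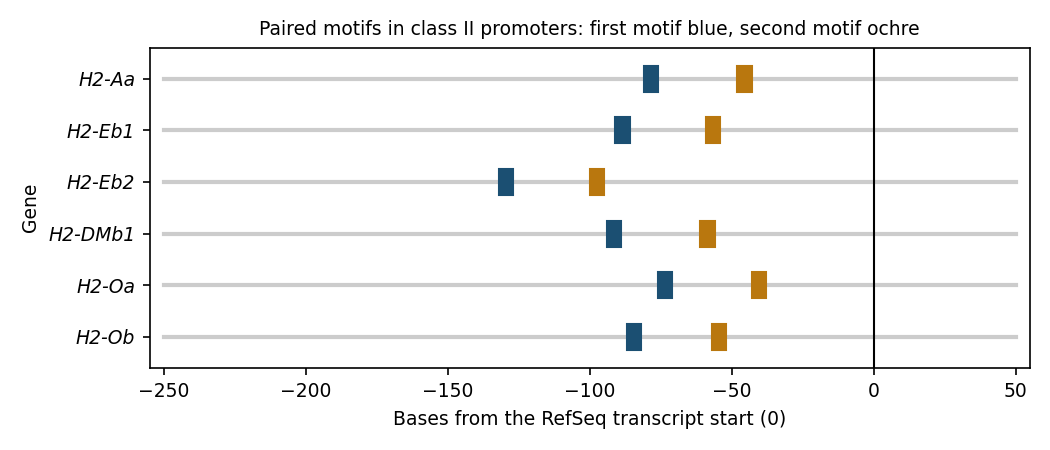
Positions of the paired motifs in the 6 member promoters that hold them, in bases from the RefSeq transcript start (0), with the first motif in blue and the second in ochre on a grey line for the searched window. The second motif begins 43 to 61 bases before the start in every gene drawn but H2-Eb2, where it begins 100 bases before it.

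The libraries held 9088200 (control), 8570732 (mM-CSF) and 8943847 (sM-CSF) estimated counts. The macrophage genes behind the sort were expressed in each: Csf1r was at 268 (control), 222 (mM-CSF) and 149 FPKM (sM-CSF), and Adgre1 at 101, 67.5 and 65.5. FPKM is the authors' level per kilobase of gene length, scaled to sequencing depth, and where 3 levels are given without labels below they follow this order. Other class II-bearing cells were also represented, and their markers are set beside the results below. A gene was called higher or lower where log2(FPKM + 1) differed by at least 1 (2-fold, a scale that understates low genes) and at least 5 FPKM was reached in the higher of the pair. The mM-CSF library stood apart from the control along gene length, with a Spearman's rho of -0.69 between length and difference across 9213 genes, against -0.45 across 9372 genes for the sM-CSF library. The members' differences, and list values that it moved, are therefore also given with the median along length removed ("without the trend"). Counts of list genes are read against the shares of all genes called between mM-CSF and control (8.97% higher, 15.1% lower) and between sM-CSF and control (0.785% and 1.63%). Between mM-CSF and control, 878 genes were called higher and 1480 lower, a split that went to 281 and 3406 with TPM scaling and to 1333 and 1126 with upper-quartile scaling, where the median of all genes went from -0.07 to -0.51 and 0.09. Between mM-CSF and sM-CSF, 363 and 836 became 182 and 2174 by TPM, 584 and 614 by median-of-ratios, and 673 and 562 by upper-quartile scaling. Between sM-CSF and control, 76 and 158 became 98 and 364 with TPM.

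The invariant chain and classical chain transcripts were abundant in every library. Cd74 had the highest FPKM of all genes in each of the 3 libraries, at 6470 (control), 7835 (mM-CSF) and 9903 (sM-CSF). H2-Aa ranked 5, 54 and 7 among all genes in the 3 libraries, H2-Ab1 7, 47 and 6, and H2-Eb1 22, 97 and 20. The 4 loading genes ranked between 216 and 698, and Ciita 904, 4749 and 1185. The 10 members took 1.75% of control counts, 1.79% of mM-CSF counts and 2.51% of sM-CSF counts. The 9 genes other than Ciita summed to 13466, 14049 and 19450 FPKM. As a share of all FPKM this was 2.98%, 2.25% and 3.89%, so the mM-CSF library was lowest on that scale and near the control by counts. Cd74 made up 48.0%, 55.8% and 50.9% of that sum. The sM-CSF library had the highest level of 9 of the 10 members, the exception being Ciita, although H2-DMa (181 against 174 FPKM in mM-CSF) was within counting error.

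**Figure D2:**
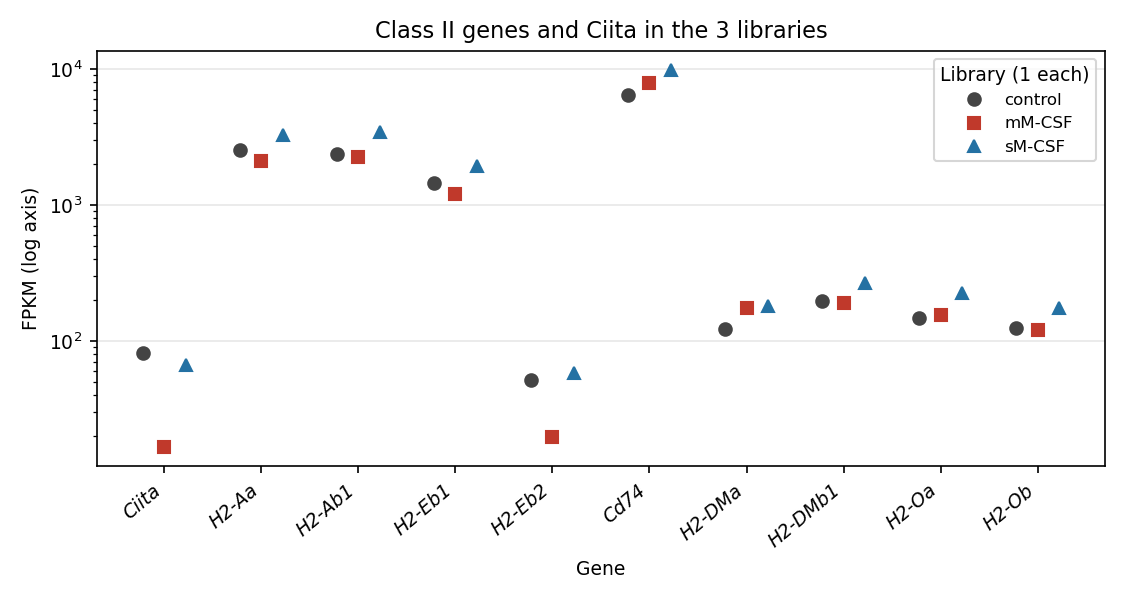
FPKM of the 10 genes (log axis) in the control (circles), mM-CSF (squares) and sM-CSF (triangles) libraries, 1 library each and so without error bars. The sM-CSF triangle is the highest point of each gene but Ciita (for H2-DMa within counting error of mM-CSF, and below it by median-of-ratios and upper-quartile scaling), and the mM-CSF square stands well below the other 2 points for Ciita (16.4 FPKM) and H2-Eb2 (19.4 FPKM).

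Ciita (NCBI gene 12265), the transactivator, was at 80.6 (control), 16.4 (mM-CSF) and 66.2 FPKM (sM-CSF). The counts behind these levels were 3981, 756 and 3230. The mM-CSF library was thus the low library and the other 2 were near each other. Its share of counts was 4.97-fold lower in mM-CSF than in control (95% interval 4.59 to 5.37), 4.09-fold lower in mM-CSF than in sM-CSF (3.78 to 4.44), and 1.21-fold lower in sM-CSF than in control (1.16 to 1.27). On the log2(FPKM + 1) scale these were differences of -2.23, -1.95 and -0.28. Ciita is long, averaging 5355 bases over the libraries, and genes of its length were lower in the mM-CSF library in general. Of the 460 genes between 4787 and 5560 bases, 30.0% were called lower in mM-CSF than in control and the median difference was -0.72. The Ciita difference was at or above that of 15 of these genes (3.26%, Ciita included). With the length trend removed it was -1.47 against control and -1.34 against sM-CSF, both still past 2-fold, and -0.12 for sM-CSF against control. Against control, the difference under the other scalings was between -2.72 and -2.05.

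The classical chain genes did not follow Ciita in size. H2-Aa (gene 14960), the I-A alpha chain gene, was at 2546 (control), 2091 (mM-CSF) and 3256 FPKM (sM-CSF). H2-Ab1 (gene 14961), the I-A beta chain gene, was at 2371, 2266 and 3440, and H2-Eb1 (gene 14969), the I-E beta chain gene, at 1438, 1200 and 1945. In all 3 genes the sM-CSF library was highest and the mM-CSF library lowest. In mM-CSF against control the share of counts was 0.827-fold for H2-Aa (0.811 to 0.843), 0.962-fold for H2-Ab1 (0.945 to 0.979) and 0.840-fold for H2-Eb1 (0.823 to 0.857). These are differences of -0.28, -0.07 and -0.26, short of the 2-fold rule. The direction of H2-Ab1 turned (0.02 by median-of-ratios, 0.12 by upper-quartile scaling), while H2-Aa and H2-Eb1 stayed below 0 under every scaling run. The 3 genes are short, 1084 to 1669 bases, and genes of their length were higher in the mM-CSF library. With the trend removed the differences were -1.06 for H2-Aa, -0.76 for H2-Ab1 and -0.66 for H2-Eb1, of which H2-Aa passed 2-fold. H2-Aa lay at or above 34 of the 461 genes of its length bin (7.38%, H2-Aa included).

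In sM-CSF against control the same chains were higher, by 1.28-fold for H2-Aa (1.26 to 1.30), 1.45-fold for H2-Ab1 (1.43 to 1.48) and 1.35-fold for H2-Eb1 (1.33 to 1.38). None passed the 2-fold rule. Once corrected for length, they differed by 0.13, 0.32 and 0.31. The ratio of H2-Aa to H2-Ab1, the partners of I-A, was 1.07 (control), 0.923 (mM-CSF) and 0.947 (sM-CSF). H2-Aa ranked above H2-Ab1 in the control and below it in the other 2 libraries, with counting intervals apart each time.

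H2-Ea (gene 100504404), the I-E alpha chain gene that is defective in this strain, was at 0.51, 0.54 and 1.42 FPKM from 4, 4 and 11 reads. H2-Eb1, at 1200 FPKM or more in each library, thus stood beside a partner gene near the counting floor of 3 reads.

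H2-Eb2 (gene 381091), a second E beta-like gene, was the chain gene whose values most resembled those of Ciita. It was at 51.4 (control), 19.4 (mM-CSF) and 57.9 FPKM (sM-CSF). The mM-CSF library was low and the other 2 were close, as for Ciita. Its share of counts was 2.63-fold lower in mM-CSF than in control (2.38 to 2.89), and 1.13-fold higher in sM-CSF than in control (1.05 to 1.21). The mM-CSF difference of -1.36 was -1.10 with the length trend removed, still past 2-fold, and lay between -1.83 and -1.18 under the other scalings. Against the neighbouring and related H2-Eb1, H2-Eb2 was at a ratio of 0.0357 (control), 0.0162 (mM-CSF) and 0.0298 (sM-CSF). H2-Eb2 averages 3380 bases and H2-Eb1 1669, so the mM-CSF ratio carries the length trend. With the trend removed, the mM-CSF differences from control were -1.10 for H2-Eb2 and -0.66 for H2-Eb1. The estimated count of H2-Eb2 was not whole in any library, so reads may have been divided with a related gene.

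Cd74 (gene 16149), the invariant chain gene, was higher in both M-CSF libraries than in the control. The share of counts was 1.21-fold higher in mM-CSF (1.19 to 1.22) and 1.53-fold higher in sM-CSF (1.52 to 1.55). The mM-CSF difference of 0.28 turned to -0.19 by TPM and to -0.37 without the length trend, whereas that of sM-CSF, 0.61, stayed above 0 at 0.47 and 0.41. Relative to the chains it serves, Cd74 FPKM was 1.02 times the sum of H2-Aa, H2-Ab1 and H2-Eb1 in the control library, 1.41 times in mM-CSF and 1.15 times in sM-CSF. The length trend at these 4 short genes was 0.40 to 0.78 in mM-CSF against control, compared with -0.76 at Ciita.

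The peptide-loading genes differed by at most 0.50 between mM-CSF and control. H2-DMb1 (gene 14999), the H2-DM beta chain gene, was at 195 (control), 189 (mM-CSF) and 267 FPKM (sM-CSF), and its mM-CSF share of 0.972-fold (0.916 to 1.03) did not differ from the control beyond counting error. H2-DMa (gene 14998), the H2-DM alpha chain gene, was at 123, 174 and 181 FPKM. It was the member with the highest difference in mM-CSF against control, 0.50 (1.43-fold, 1.34 to 1.52), which was 0.10 with the trend removed and 0.04 with TPM scaling. The H2-O genes, whose product is best known from B cells, were near level between control and mM-CSF as measured, and higher in sM-CSF. H2-Oa (gene 15001) was at 148, 155 and 225 FPKM, and H2-Ob (gene 15002) at 124, 119.6 and 176. Their mM-CSF shares were 1.05-fold (0.978 to 1.14) and 0.972-fold (0.922 to 1.02) of the control. Without the length trend, H2-DMb1, H2-Oa and H2-Ob were at -0.67, -0.72 and -0.02.

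All 4 loading genes were higher in sM-CSF than in control, by 1.37-fold to 1.52-fold. The FPKM ratio of summed H2-Oa and H2-Ob to summed H2-DMa and H2-DMb1 was 0.853 (control), 0.755 (mM-CSF) and 0.892 (sM-CSF). It leaves out the more abundant H2-DMb2, and as a ratio of RNA it does not measure the inhibitor protein against its target. H2-DMb2 (gene 15000), a copy of H2-DMb1 next to it, was at 416, 403 and 605 FPKM, and its ratio to H2-DMb1 stayed between 2.13 and 2.26. The counts of H2-DMb1 were not whole, and the division of reads between these copies is uncertain.

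The order of levels within a library was Cd74, then the 3 chain genes, then the 4 loading genes, with Ciita and H2-Eb2 last. This grouping held in each library. Neighbours whose counting intervals overlapped were H2-Ob and H2-DMa in the control, H2-DMb1 and H2-DMa in mM-CSF, and H2-DMa and H2-Ob in sM-CSF. Ciita ranked above H2-Eb2 in the control and sM-CSF libraries and below it in mM-CSF.

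By the 2-fold rule, 0 of 10 members were higher and 2 lower (Ciita and H2-Eb2) in mM-CSF than in control, where 8.97% of 9789 genes were higher and 15.1% lower. The count of lower members is close to that share. The median member difference was -0.06, beside -0.07 over 12782 genes at 1 FPKM or more. Removing the length trend gave 3 lower members (with H2-Aa), beside 7.94% of genes (and 0 higher, beside 2.93%), and a median of -0.70 beside -0.01. Between mM-CSF and sM-CSF, 0 were higher and the same 2 genes lower, beside 3.79% and 8.73% of 9574 genes, with a median of -0.58 beside -0.11. All 10 members were below 0 there on the FPKM scale, but H2-DMa (-0.06, 0.966-fold, 0.914 to 1.02) was within counting error and turned to 0.08 by median-of-ratios and 0.12 by upper-quartile scaling. With the trend removed 5 were lower (H2-Aa, H2-Ab1 and H2-Oa besides) and 0 higher, beside 4.73% and 1.93% of genes. A 1.5-fold rule also gave 5 lower, beside 22.1% of genes. Between sM-CSF and control none passed, beside 0.785% higher and 1.63% lower of 9683 genes, and the median was 0.48 beside 0.02 over all genes. With the trend removed none passed either, beside 0.485% higher and 1.82% lower. A 1.5-fold rule gave 2 higher members, Cd74 and H2-Oa, beside 4.2% of genes. The mM-CSF and sM-CSF comparisons with control share the control library and are not independent.

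**Figure D3:**
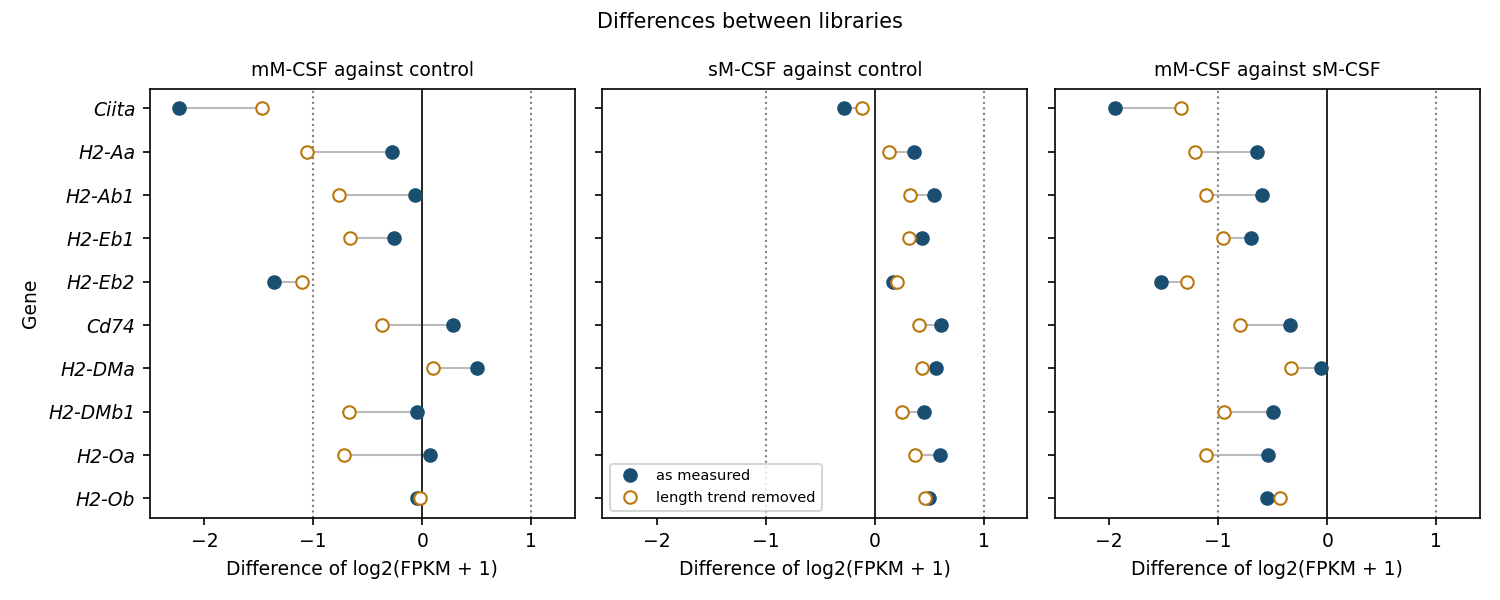
Difference of log2(FPKM + 1) for each gene in the 3 comparisons, as measured (filled) and with the length trend removed (open), with dotted lines at the 2-fold rule. In mM-CSF against control, Ciita (-2.23) and H2-Eb2 (-1.36) lie past the line as measured, and removal of the trend moves Ciita toward 0 but the short chain genes away from it.

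**Figure D4:**
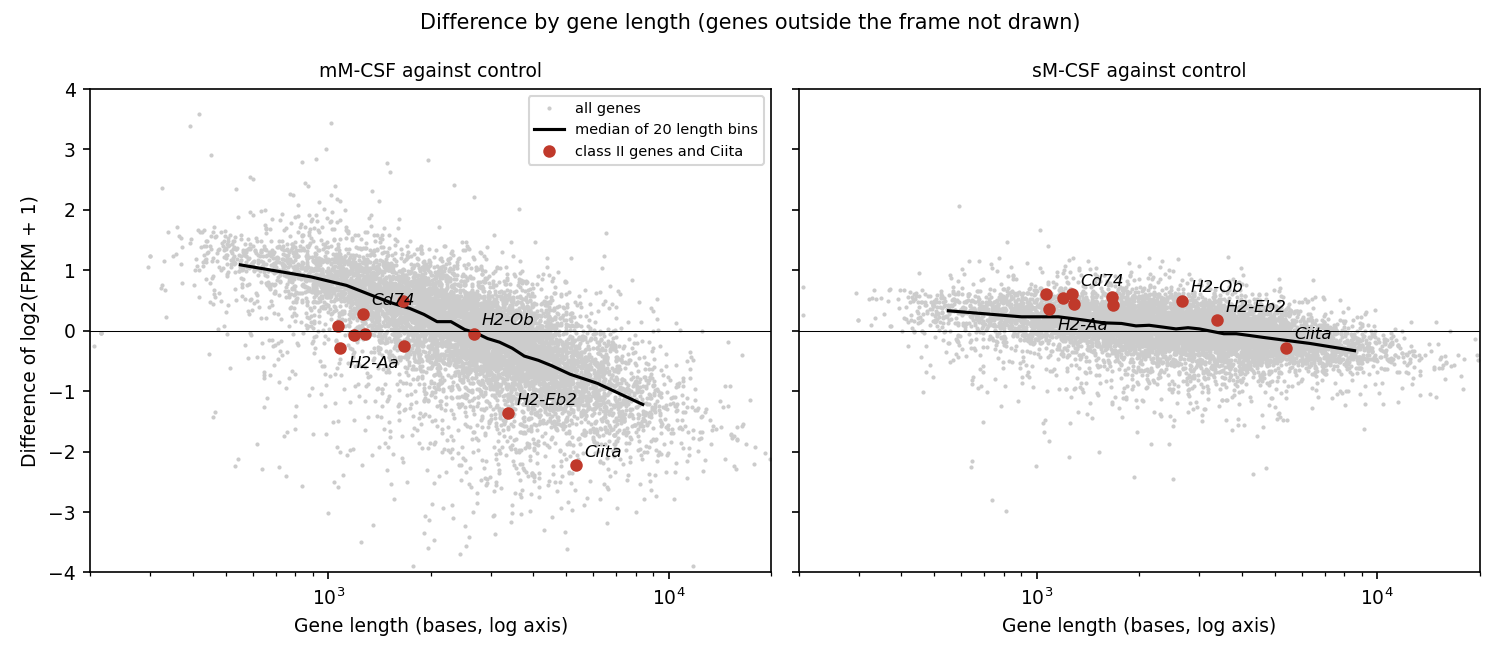
Difference of log2(FPKM + 1) against gene length (log axis) for genes with a mean of 5 FPKM or more (grey), the median of 20 length bins (black line) and the 10 members (red), in mM-CSF (left) and sM-CSF (right) against control. On the left Ciita and H2-Eb2 lie below the falling line, and H2-Aa, near 0, lies below it too; on the right 9 members lie above 0 and Ciita slightly below.

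Among genes that act on class II promoters, the large coactivators and Rfx5 passed the rule as lower in mM-CSF than in control. Nfya (-0.98) and Creb1 (-0.91) fell just short of it as measured, while Nfyb (0.02) and Nfyc (0.15) were near level. Of 10 such genes 4 were lower and 0 higher in mM-CSF than in control (median -0.95), beside 15.1% lower and 8.97% higher of all genes, and 0 passed in sM-CSF (median -0.05). Rfx5, the DNA-binding RFX subunit of the enhanceosome, was at 22.5, 8.46 and 25.2 FPKM in control, mM-CSF and sM-CSF, while its partners Rfxap (7.71, 10.5 and 8.89) and Rfxank (13.5, 20.7 and 18.5) were not lower in mM-CSF. The acetyltransferase genes Ep300 (36.6, 6.26 and 23.6 FPKM), Crebbp (16.6, 4.44 and 13.8) and Kat2b (13.4, 5.89 and 9.21) were the other 3. Rfx5 averages 4189 bases and Ep300 8749. With the length trend removed only Ep300 of the 4 passed 2-fold (-1.15), Rfx5 was at -0.81, and the list median was -0.32, with 1 of 10 lower beside 7.94% of all genes.

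Upstream of Ciita, interferon-gamma signalling and lineage factors drive its promoters. Of 14 regulator genes 1 was lower and 0 higher in mM-CSF (median -0.42, or -0.13 without the trend), and none passed in sM-CSF (median 0.00). The lower gene was Jak2, a kinase of the interferon-gamma receptor, at 59.5, 13 and 47.5 FPKM, 4.58-fold lower in mM-CSF (4.19 to 5.03) and at -1.42 without the trend. Its length of 4994 bases is close to that of Ciita. The kinase gene Jak1 was at 90.6, 53.2 and 90.8 FPKM, the repressor or activator gene Irf2 at 60.1, 34.0 and 56.1, and the PU.1 gene Spi1 at 194, 120.1 and 156. The mM-CSF library was lowest for each, short of the rule. Without the trend Jak1 was level (-0.01), Irf2 was at -0.84 and Spi1 passed 2-fold at -1.18, which made 2 regulators lower.

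Among 12 genes of class II processing and turnover, 2 were higher and 1 lower in mM-CSF (median -0.01), and none passed in sM-CSF (median -0.17). Without the trend the mM-CSF counts were again 2 and 1 but for other genes. None of those called as measured (Ctsd, Mif and Marchf1) still passed. Marchf1, the ubiquitin ligase that sends surface class II to degradation, was at 37.4, 14.9 and 32.8 FPKM, and its difference of -1.27 was -0.82 without the trend. The endosomal protease gene Ctsd was at 356, 747 and 338 FPKM, a difference of 1.07 that was 0.85, short of 2-fold, without the trend. Mif, whose product binds CD74, was at 189, 445 and 214. The Mif difference of 1.23 was 0.15 without the trend. Ctss, the protease that cuts the invariant chain in many antigen-presenting cells, was level at 506, 553 and 507 FPKM. Of 8 other genes of the class II region found in the tables, 7 reached 1 FPKM in mM-CSF or control, and 1 was higher: the immunoproteasome gene Psmb8, at 143, 295 and 176 FPKM (1.04, or 0.37 without the trend). None passed in sM-CSF.

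The markers of cells that make class II moved in different directions. Dendritic cell markers were lower in mM-CSF: 9 of 14 lower and 1 higher against control (median -1.74, or -1.59 without the trend), with summed levels of 584, 290.0 and 543 FPKM. Zbtb46, a transcription factor gene of conventional dendritic cells, stood at 20.1, 1.46 and 13.1 FPKM. Flt3, a growth factor receptor gene of dendritic cells and progenitors, stood at 46.0, 6.25 and 42.0, and Itgax, an integrin gene, at 163, 28.1 and 133. The mM-CSF library was lowest for all 3, with differences from control of -3.22, -2.32 and -2.02 without the trend. Zbtb46 was also 1.57-fold lower in sM-CSF than in control (1.34 to 1.84). In sM-CSF 1 of 14 was lower (median -0.13), namely Zfp366. That gene was at 24.6, 0.17 and 9.02 FPKM, and its mM-CSF level rested on 4 counts, near the floor of 3. Snx22, the marker higher in mM-CSF, was at 44.3, 119 and 58 FPKM, a large part of the mM-CSF sum. None of the 14 markers was at 0 in any library.

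B cell markers summed to 1896, 3396 and 3274 FPKM. In mM-CSF 3 of 16 were higher and 1 lower (median 0.39), in sM-CSF 3 higher and 0 lower (median 0.57), and without the length trend none passed in either. Cd79a and Cd79b, genes of the B cell receptor, were at 468, 1117 and 958 and at 322, 918 and 634 FPKM. Ms4a1, which encodes CD20, was at 155, 151 and 224, and Cr2, a complement receptor gene of mature B cells, at 40.6, 16.7 and 56.7. The sum of the 9 class II genes over Ms4a1 was 86.9 in the control, 93.1 in mM-CSF and 86.8 in sM-CSF. Over Cd79a it was 28.7, 12.6 and 20.3, so the ratio depends on the marker chosen. Over Csf1r it was 50.3, 63.3 and 130.2. These ratios carry the length trend of the mM-CSF library, as Ms4a1 (2057 bases) and Csf1r (3875 bases) are longer than Cd74 (1264 bases). Without the trend, the mM-CSF differences from control were -0.20 for Ms4a1, 0.17 for Csf1r and 0.66 for Cd79a. The median of the 9 class II genes was then -0.67. The part of these cells in the class II levels was not tested, and in bulk RNA fewer cells of a type and less RNA per cell cannot be told apart.

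Macrophage markers summed to 2510, 5290 and 2394 FPKM, with 4 of 16 higher and 1 lower in mM-CSF (median 0.22) and none past the rule in sM-CSF (median -0.17). Without the trend 4 were higher and 0 lower in mM-CSF (median 0.51). The higher ones were the Fc receptor gene Fcgr1 and the complement genes C1qa (254, 1129 and 366 FPKM), C1qb (271, 1231 and 385) and C1qc (312, 1085 and 397). Most of the rise of the sum in mM-CSF lay in these C1q genes, not across the list. Mertk, the lower one as measured, was at 42.1, 17.8 and 25.6 FPKM. Monocyte markers had 6 of 9 lower and 1 higher in mM-CSF and 5 of 9 lower in sM-CSF (medians -1.15 and -1.01), or 5 and 4 lower without the trend. Markers of plasma cells, which shut Ciita off as they form, were higher in mM-CSF in 6 of 7 cases and in sM-CSF in 0 (medians 1.71 and 0.10), with Jchain at 1008, 3301 and 1072 FPKM. Without the trend 4 of 7 were higher in mM-CSF (median 1.15). Plasmacytoid dendritic cell markers had 3 of 8 higher in mM-CSF, namely Cox6a2, Ly6d and Bst2, while Siglech, more restricted to that lineage, stood at 6.90, 3.37 and 5.69 FPKM, and 0 passed in sM-CSF. Without the trend these 3 differences from control in mM-CSF were 0.31, 0.31 and 0.14, none past 2-fold, and the list had 1 higher and 1 lower. In mM-CSF, T cell markers had 6 of 10 higher and 1 lower, neutrophil markers 4 of 8 higher and 0 lower, and erythroid markers 0 of 8 higher and 3 lower. In sM-CSF the counts were 4 higher of 10 T cell, 0 of 7 neutrophil and 3 lower of 8 erythroid markers. Without the trend, T cell markers had 4 higher in mM-CSF and 0 in sM-CSF, neutrophil markers 3 and 0 higher, and erythroid markers 6 and 3 lower. Their part in the class II differences was not tested.

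**Figure D5:**
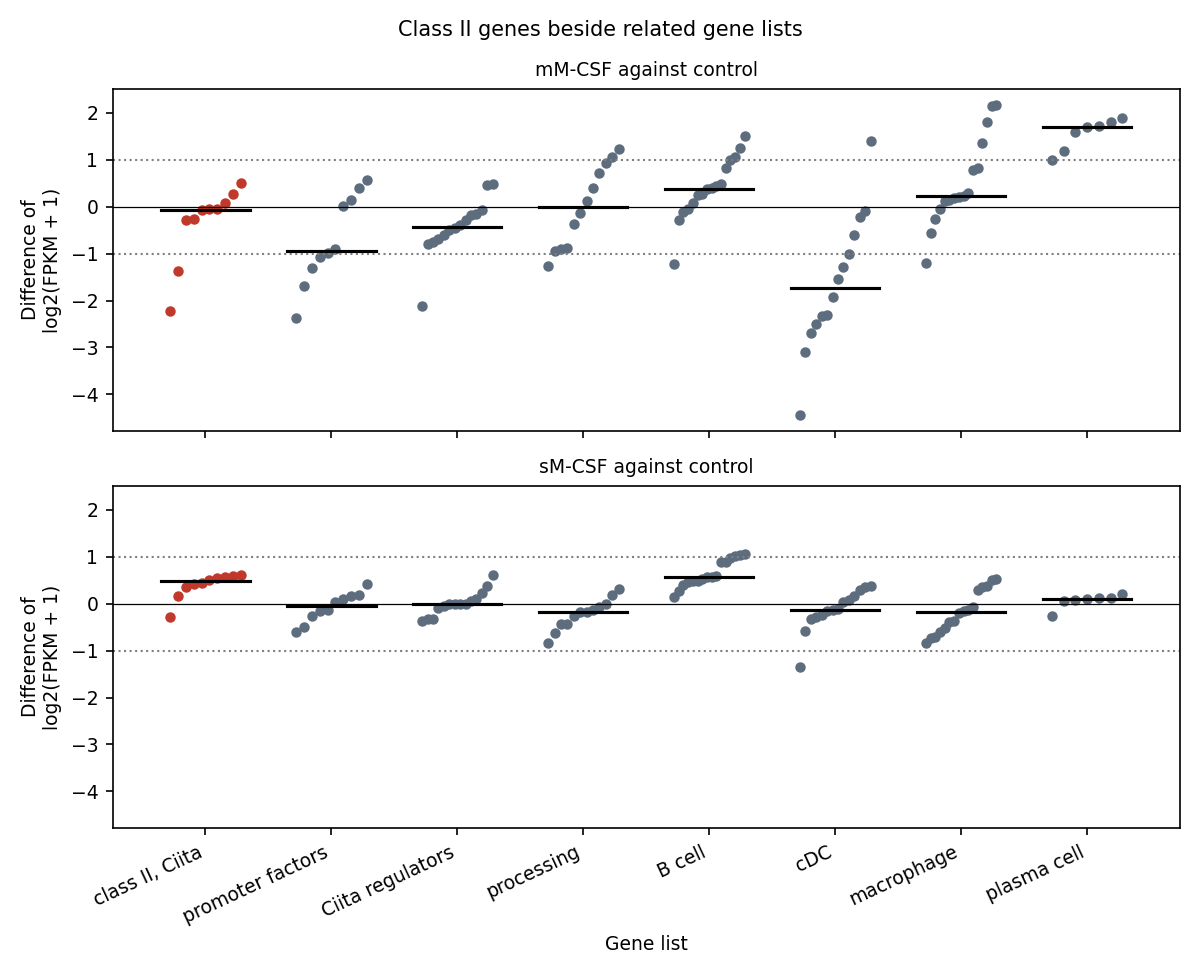
Difference of log2(FPKM + 1) of each gene with at least 1 FPKM (points, sorted within a list) and the list's median (bar), for mM-CSF (top) and sM-CSF (bottom) against control, with dotted lines at the 2-fold rule. In the top panel the class II list (red) has its median at -0.06 with Ciita and H2-Eb2 below the rest, the dendritic cell list (cDC) its median at -1.74 and the plasma cell list at 1.71.

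Across the 3 libraries, the genes whose pattern was nearest to that of Ciita were Fem1c, Ccnt2, Dpp4, Csf2rb2 and Mreg, by Euclidean distance of centred log2(FPKM + 1). The ranking covered 7314 named protein-coding genes that reached 10 FPKM, with predicted models and ribosomal protein and mitochondrial genes left out. Dpp4, also on the dendritic cell list, was at 49.4, 8.98 and 39.4 FPKM, and Csf2rb2, a cytokine receptor gene, at 18.6, 3.15 and 14. Of the other class II members, H2-Eb2 was nearest to Ciita, at rank 351, and H2-Aa next, at rank 2319. The genes nearest to H2-Ab1 were H2-DMb2, Ms4a1, Kbtbd11, Apol7e and H2-Ob. H2-DMb1 ranked 17, H2-Oa 25, H2-Eb1 54, H2-Aa 87 and Cd74 278, whereas H2-DMa was at 1653, H2-Eb2 at 5766 and Ciita at 7106. These distances rest on 3 values a gene, which share libraries and the length trend.

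Ciita was the member that stood lowest against the other class II genes in the mM-CSF library. The summed FPKM of the other 9 members was 167 times that of Ciita in the control, 857 times in mM-CSF and 294 times in sM-CSF. Summed B cell markers exceeded Ciita as well, with a ratio of Ciita to that sum of 0.0425, 0.00483 and 0.0202. Both ratios set the long Ciita transcript against mostly shorter ones, and so carry the length trend of the mM-CSF library.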

How the data were processed

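RNA sequencing gave 1 library per group (control, mM-CSF, sM-CSF). Per the labels' protocols, libraries were run on a BGISEQ-500 from 1 ug of RNA each. Bowtie2 (version 2.2.5) and RSEM were used per the submitters' processing notes, which give no role to either. The genome build, annotation and use of strand are not given in the sources used here. The deposited tables give, per the file headers, an expected count (the authors' estimated reads per gene, whole within 0.005 in 75.7%, 76.7% and 75.9% of rows) and an FPKM value per NCBI gene ID. Genes not listed were taken as 0, and a floor of 3 counts equals 0.330, 0.350 and 0.335 CPM. Symbols came from RefSeq names of GRCm38.p6 for all but 54 of 17615 genes.

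Differences were taken on log2(FPKM + 1) in Python 3.11.15 with scipy 1.17.1. Intervals are exact conditional (Clopper-Pearson) 95% intervals of the ratio of count shares, with counts rounded. PCR copies are not separate molecules, so they cover counting error only. The length trend is the median difference in 20 length bins of genes at a mean of 5 FPKM or more, joined by straight lines. The rule and intervals were tested on simulated data with planted changes and counting error only. That simulation held no length trend and no variation between mice, so it does not cover either. Named genes were the 10 members, up to 4 genes of each of 13 other lists with the largest difference from control at 5 FPKM or more, a fixed set of markers, RFX subunits, Ctss and H2-Ea, and the 5 genes nearest to Ciita and to H2-Ab1. Of 153 list genes 151 matched. Members and lists were chosen with earlier results of these data known.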

Additional observations from a re-analysis of the deposited data

How the results depend on the processing

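The alternatives were pseudocounts of 0.1 and 5, minimum levels of 1 and 10 FPKM or none, TPM, median-of-ratios and upper-quartile scaling, CPM of the expected counts, removal of the length trend, and a 1.5-fold rule. Calls of Ciita and H2-Eb2 as lower in mM-CSF held under each of them. For mM-CSF against control, the Ciita difference of -2.23 was -2.00 with a pseudocount of 5, -2.72 with TPM, -2.05 with upper-quartile scaling and -1.47 without the length trend. For mM-CSF against sM-CSF, -1.95 became -1.73, -2.29, -1.78 and -1.34 in the same order, and -1.82 with median-of-ratios scaling. For sM-CSF against control, -0.28 became -0.43 with TPM and -0.12 without the trend. The median member difference was more dependent on scaling. For mM-CSF against control, -0.06 became -0.52 with TPM, 0.03 with median-of-ratios, 0.13 with upper-quartile scaling and -0.70 without the trend. For mM-CSF against sM-CSF, -0.58 became -0.90, -0.44, -0.40 and -1.03. For sM-CSF against control, 0.48 became 0.33 with TPM and 0.31 without the trend. The 2 lower members between mM-CSF and sM-CSF became 5 without the trend and 5 with the 1.5-fold rule. The 1.5-fold rule also called 2 members higher in sM-CSF than in control. The cause of the length trend was not tested. No paired analysis was possible because each group has 1 library, and no replicate could be left out. Depth limits H2-Ea alone among the class II genes named, since every member had at least 570 counts in each library.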
